A study of Mus musculus with 4 samples.

Results

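The mitotic kinesins are motor proteins that move along microtubules, or take them apart, while a cell builds its spindle, separates its chromosomes and divides. They were read here in bone marrow cells sorted as LSK, cells without lineage markers but with Sca-1 and Kit, among which are the hematopoietic stem cells and early progenitors. The set was 10 genes taken by name, Kif11, Kif14, Kif15, Kif18a, Kif20a, Kif20b, Kif22, Kif23, Kif2c and Kif4, of 22180 genes that a probe set naming 1 gene measured. Each of the 10 had exactly 1 such probe set. RNA was hybridised to Affymetrix arrays, 1 array per group, in 4 groups. These were AMKO mice at day 8 after 5FU, Ctrl mice at day 8 after 5FU, AMKO mice at Basal (day 0) and Ctrl mice at Basal. All mice were C57/B6 males of 4 months, and 5FU (5-fluorouracil, a pyrimidine analog that kills dividing cells) was given once at 150 mg/kg. AMKO is not spelled out in the labels and is used as a genotype name, and the number of mice behind an array is not given. With 1 array in a group, a difference between 2 arrays has no replicate error.

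Most of these genes are silent or low in resting cells. Their RNA is made late in the cell cycle, from the end of DNA synthesis into mitosis, and is lost again after division. In unperturbed marrow most hematopoietic stem cells are out of cycle, whereas multipotent progenitors divide more often, and a dose of 5FU is a classic way to draw the surviving cells into division. The promoters of many late cell cycle genes carry a cell cycle genes homology region (CHR), which is bound by the DREAM complex in resting cells and by complexes with B-Myb and FoxM1 in dividing ones, often beside a CCAAT box bound by NF-Y.

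Since all members were higher after 5FU, their promoters were read in windows of 300 bases, 250 before and 50 after the annotated start, from RefSeq on GRCm38.p6. Windows were found for 9 of the 10 genes, and none for Kif20a. The stretches shown run from 60 bases before the start to 30 after it, written 5′ to 3′ on the gene's own strand. Capitals mark the CHR letters TTTGAA, or TTCAAA where they lie on the other strand, and the CCAAT box, or ATTGG on the other strand. The first 6 hold a CHR match there, and Kif18a is shown as the gene whose whole window had neither motif.
Kif11, chr19:37376322-37376411, plus strand: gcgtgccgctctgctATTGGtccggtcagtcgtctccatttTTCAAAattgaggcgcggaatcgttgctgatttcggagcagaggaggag
Kif15, chr9:122951021-122951110, plus strand: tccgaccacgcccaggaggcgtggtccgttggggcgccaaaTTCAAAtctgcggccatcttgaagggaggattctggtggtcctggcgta
Kif22, chr7:127042391-127042480, minus strand: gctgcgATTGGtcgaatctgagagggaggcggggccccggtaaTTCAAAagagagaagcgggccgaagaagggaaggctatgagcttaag
Kif23, chr9:61946770-61946859, minus strand: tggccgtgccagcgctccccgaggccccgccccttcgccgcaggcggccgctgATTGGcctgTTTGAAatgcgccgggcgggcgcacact
Kif4, chrX:100626005-100626094, plus strand: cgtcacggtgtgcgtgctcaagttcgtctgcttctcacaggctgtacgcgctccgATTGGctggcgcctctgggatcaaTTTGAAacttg
Kif20b, chr19:34922298-34922387, plus strand: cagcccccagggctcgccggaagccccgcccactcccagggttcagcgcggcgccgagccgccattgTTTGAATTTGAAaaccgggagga
Kif18a, chr2:109280678-109280767, plus strand: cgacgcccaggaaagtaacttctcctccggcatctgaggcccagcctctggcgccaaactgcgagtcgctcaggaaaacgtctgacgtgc

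A CHR match on either strand lay somewhere in the 300 bases of 8 of 9 members, against 17.9% of all 32851 windows and 12.2% of the 13816 windows of genes kept by the floor described below. Within the 90 bases shown, a stretch chosen after the sequences were seen, 6 of 9 members had one, against 4.62% of all windows and 2.74% of those of kept genes. In Kif11 and Kif15 the match began 19 bases before the start, and in Kif22 it began 17 bases before. In Kif23 it began at base 3 after the start and in Kif4 at base 20. Kif20b had 2 copies end to end, from base 8 to base 19. The CCAAT letters were in the windows of 5 of 9 members, against 37.4% of all windows and 37.0% of those of kept genes. In the 90 bases 4 members had them, against 14.0% and 15.1%. The variant TTTAAA, which reads the same on both strands, was in 2 of 9 windows (Kif14 and Kif2c), against 13.2% and 9.13%. One of the E2F letters TTTCCCGC, TTTGGCGC, TTTGCCGC or TTTCGCGC was in 2 of 9 (Kif15 and Kif18a), against 2.26% and 3.69%. In Kif15 the E2F letters ended directly before the CHR letters, without overlap. A match of letters describes the window and does not show a bound site.

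**Figure D1:**
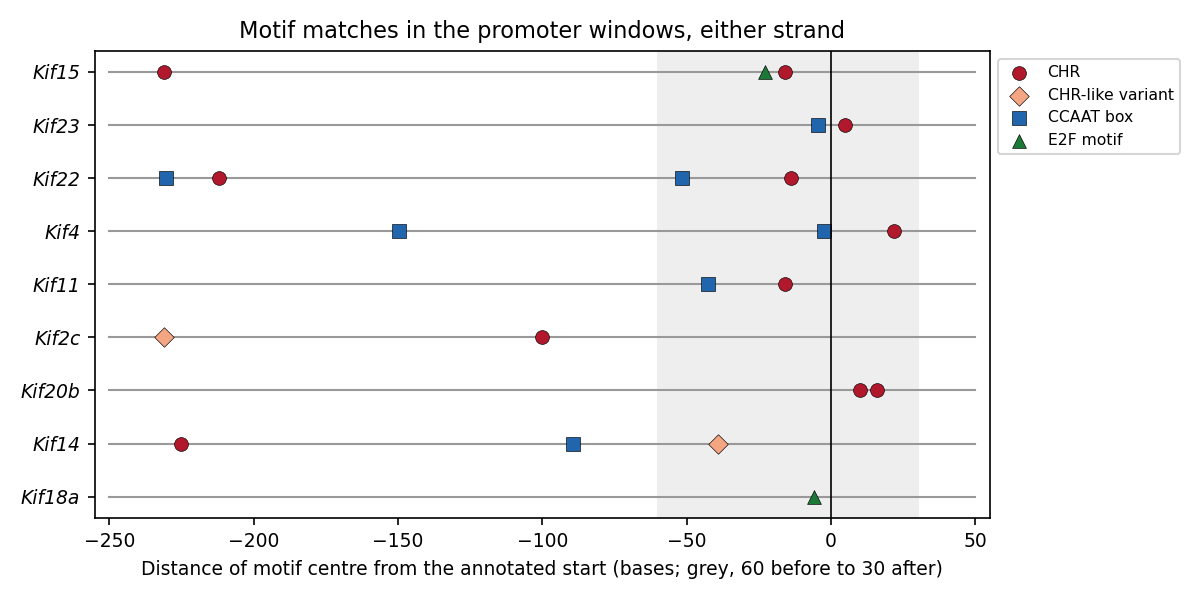
Distance in bases of each motif match (either strand) from the annotated start for the 9 members with a promoter window, ordered by mean 5FU difference; the grey band runs from 60 bases before to 30 after the start. CHR matches lie in the band for 6 genes, and Kif18a has an E2F match alone.

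Before the members are described, 2 arrays that stand apart need naming. The LSK label could be read in Kit, whose log2 value was 11.16 in AMKO and 11.08 in Ctrl after 5FU, against 11.87 in AMKO and 11.84 in Ctrl at Basal. Ly6a, the Sca-1 gene, was not read by a probe set naming 1 gene. Of the 8 LSK and stem cell markers that were read, Cd48, which is absent from most stem cells and present on more mature progenitors of the LSK gate, moved most, with 9.49 in AMKO and 9.96 in Ctrl after 5FU, against 5.15 in AMKO and 4.99 in Ctrl at Basal, both under the floor. Its AMKO difference of 4.34 was the largest of any kept gene. Flt3, a receptor of multipotent progenitors, differed by 0.52 in AMKO and 1.57 in Ctrl, and Cd34 by 0.64 and 1.03. Procr, a stem cell surface marker, differed by -0.70 in AMKO and -1.64 in Ctrl, Slamf1 by -0.36 and -0.48, Hlf by -0.29 and -0.59, and Mecom by -0.04 and -0.49. In both genotypes Cd48, Flt3 and Cd34 were thus higher after 5FU, and Kit, Procr, Slamf1, Hlf and Mecom lower. Slamf1, Hlf and Mecom differed by less than 0.5 in AMKO, as did Slamf1 and Mecom in Ctrl. Of the 8 markers, 1 was at least 2-fold higher in AMKO and 3 in Ctrl, against 4.69% and 5.02% of kept genes. Procr in Ctrl was the only one at least 2-fold lower. The part of these marker differences in the kinesin differences was not tested. In the Ctrl 5FU array all 12 of 12 neutrophil markers were at or above the floor, with values between 8.39 and 12.29, against 6 of 12 in AMKO after 5FU, 3 in AMKO at Basal and 4 in Ctrl at Basal, where no value passed 7.04. The same array had 7 of 9 B-lineage markers at or above the floor, against 3 in each other array, and a level of 7.65 for Xist, which is transcribed from the inactive X chromosome of females, against 3.97 to 4.41 in the other arrays although all mice are labelled male. T-lineage markers at or above the floor numbered 3 of 7 in it, against 1 in each other array. Erythroid markers numbered 6 of 6 in it and in AMKO at Basal, against 4 in AMKO after 5FU and 4 in Ctrl at Basal. The Ctrl Basal array had a median of 8.84 over 10 skeletal muscle genes, a list drawn up after earlier results of these arrays, against 5.50 to 6.23 in the others. Only the AMKO comparison of 5FU with Basal uses neither of these 2 arrays, and the Cd48 difference is present in it. Arrays do not separate more cells of a type from more RNA per cell.

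All 10 mitotic kinesins were higher after 5FU in both genotypes, by 0.92 to 1.93 on the log2 scale in AMKO and by 1.07 to 1.94 in Ctrl. The median difference was 1.40 in AMKO and 1.305 in Ctrl, against 0.03 and 0.01 over the 14061 genes kept by the floor, which asks for a highest value of at least 5.475, the median of all values. A difference of at least 2-fold was met by 8 of 10 in AMKO, where 4.69% of kept genes were that much higher, and by 10 of 10 in Ctrl, where 5.02% were. In both genotypes at once it was met by 8 of 10, against 1.96%. Both 5FU arrays lay above both Basal arrays for 10 of 10 members, with a smallest gap of 0.92, whereas 32.0% of kept genes had no such overlap. All 10 passed the floor, and none depended on the 5FU arrays for it: the lowest value of any member was 5.86, for Kif14 in Ctrl at Basal.

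**Figure D2:**
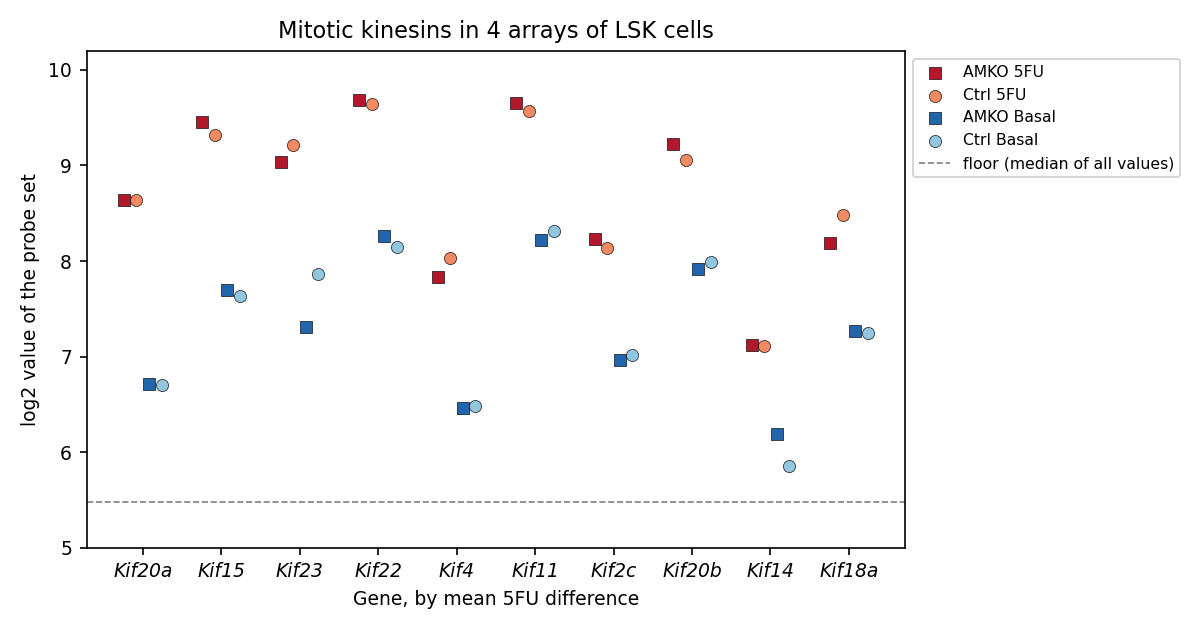
Log2 values of the 10 mitotic kinesins in each of the 4 arrays, 1 point per array, with genes ordered by the mean of both genotypes' 5FU differences. For every gene the AMKO and Ctrl 5FU points lie above both Basal points, and all points lie above the floor of 5.475 (dashed).

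The motors that push spindle poles apart come first in the order of mitosis. Kif11, which crosslinks and slides antiparallel microtubules and is needed for a bipolar spindle, had log2 values of 9.65 in AMKO and 9.57 in Ctrl after 5FU, against 8.22 in AMKO and 8.31 in Ctrl at Basal. That was 2.69-fold higher in AMKO and 2.40-fold in Ctrl. Kif15, which can take over part of the Kif11 role in holding the poles apart, stood at 9.45 in AMKO and 9.32 in Ctrl after 5FU, against 7.70 and 7.63 in AMKO and Ctrl at Basal. Its difference was 1.75 in AMKO and 1.69 in Ctrl, the next largest average after Kif20a. The genotypes were within 0.13 of each other for both genes at either time.

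Next are the motors that act on chromosomes and on the microtubule ends that hold them. Kif18a, which works at plus ends and damps the movements of chromosomes on the metaphase plate, had 8.19 in AMKO and 8.48 in Ctrl after 5FU, against 7.27 in AMKO and 7.25 in Ctrl at Basal. Its mean difference of 1.075 was the smallest of the 10, and the AMKO difference of 0.92, or 1.89-fold, missed the 2-fold size. Kif2c, a depolymerase that releases faulty attachments at centromeres, had 8.23 in AMKO and 8.14 in Ctrl after 5FU, against 6.96 in AMKO and 7.02 in Ctrl at Basal. The differences of Kif2c were 1.27 in AMKO and 1.12 in Ctrl.

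Both chromokinesins, motors that bind chromosome arms, had a mean 5FU difference of 1.46. For Kif22, which pushes arms towards the spindle equator, the values were 9.69 in AMKO and 9.64 in Ctrl after 5FU, against 8.26 in AMKO and 8.15 in Ctrl at Basal. Kif4, which also limits microtubule growth in the central spindle together with Prc1, had 7.83 in AMKO and 8.03 in Ctrl after 5FU, against 6.46 in AMKO and 6.48 in Ctrl at Basal. These were differences of 1.43 in AMKO and 1.49 in Ctrl for Kif22, and of 1.37 and 1.55 for Kif4. A separate probe set annotated to the pseudogene Kif4-ps stayed below the floor in all 4 arrays, at 5.06 in AMKO and 5.02 in Ctrl after 5FU, against 5.04 in AMKO and 4.88 in Ctrl at Basal. The annotation does not say whether the Kif4 probe set can also bind that copy.

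The motors of the central spindle and of cytokinesis included the member with the largest difference. Kif20a, which carries the chromosomal passenger complex from chromosomes to the central spindle, had 8.64 in AMKO and 8.64 in Ctrl after 5FU, against 6.71 in AMKO and 6.70 in Ctrl at Basal. It was 3.81-fold higher in AMKO and 3.84-fold in Ctrl, the highest of the 10 in each, and only 0.356% of kept genes had a larger AMKO difference and 1.40% a larger Ctrl difference. Kif23, the motor subunit of the centralspindlin complex, had 9.04 in AMKO and 9.21 in Ctrl after 5FU, against 7.31 in AMKO and 7.86 in Ctrl at Basal. Kif20b, which is needed for the final separation of daughter cells, had 9.22 in AMKO and 9.06 in Ctrl after 5FU, against 7.92 in AMKO and 7.99 in Ctrl at Basal. Its Ctrl difference of 1.07, or 2.10-fold, was the smallest in that genotype. Kif14, which brings citron kinase to the central spindle and midbody, had 7.12 in AMKO and 7.11 in Ctrl after 5FU, against 6.19 in AMKO and 5.86 in Ctrl at Basal. Like Kif18a it missed the 2-fold size in AMKO, with 0.93, or 1.91-fold, and met it in Ctrl with 1.25. In the order by mean difference, the spans from the AMKO to the Ctrl difference overlapped for each pair of neighbours except the top pair, since that of Kif20a (1.93 and 1.94) lay above that of Kif15 (1.75 and 1.69) and of every other member.

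The 5FU difference averaged over both genotypes was fitted for all 14061 kept genes with limma, genotype and treatment being additive terms. The fit has 1 residual degree of freedom, which is the difference between the genotypes' responses, so its errors are not a spread between replicate mice. For the members the averaged difference ran from 1.075 ± 0.16 (SE) for Kif18a to 1.94 ± 0.13 for Kif20a. In limma 0 of 10 members passed an adjusted p of 0.05, and their adjusted p lay between 0.0697 and 0.077. No other gene passed either, the share called being 0.0%. At an unadjusted p under 0.05 there were 10 of 10 members, against 27.8% of kept genes. The call turned on the settings: 10 of 10 passed after quantile normalization (6.74% of genes called), 10 of 10 with robust estimation (9.35%), 4 of 10 with each array centred on its median (1.15%), and 9 of the 9 members left by a floor at the 75th percentile (15.7%). When 1 array was left out, with genotype also dropped from the fit, 0 of 10 passed (0.0% of genes) without the Ctrl 5FU, the AMKO Basal or the Ctrl Basal array, and 6 of 10 (3.28%) without the AMKO 5FU array. In that last fit 5FU rests on the Ctrl 5FU array alone, the one with neutrophil, B-lineage and Xist signal.

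Markers of other blood cell types moved with 5FU in Ctrl, and their values stand here beside those of the kinesins. In AMKO the kinesin median was 1.40, while 5FU differed from Basal by a median of 0.11 for the 12 neutrophil markers, 0.065 for the 8 granulocyte-monocyte progenitor markers and 0.05 for the 9 B-lineage markers. In Ctrl the kinesin median was 1.305, while those marker medians were 5.445, 2.675 and 2.89. The 7 T-lineage markers had medians of 0.14 in AMKO and 0.53 in Ctrl, and the 6 erythroid markers -0.09 and 0.945. The kinesin difference was smaller in AMKO than in Ctrl for 5 of 10 members, among them Kif14 (0.93 and 1.25) and Kif18a (0.92 and 1.23). It was larger in AMKO for the other 5, among them Kif23 (1.73 and 1.35) and Kif20b (1.30 and 1.07). Of the 14061 kept genes, 6147 had a smaller difference in AMKO. While 8 members reached 2-fold in AMKO, against 10 in Ctrl, the counts were 10 and 10 after median centring. The part of these cell types in the kinesin differences was not tested. In the limma fit without the Ctrl 5FU array the members' differences ran from 0.93 for Kif18a to 1.94 for Kif20a. That fit has no genotype term and sets the AMKO 5FU array against both Basal arrays. It therefore does not separate genotype from 5FU, and it keeps the Ctrl Basal array with the muscle signal.

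Whether the genotypes differed in these genes was read at each time. After 5FU, AMKO minus Ctrl had a median of 0.03 and ran from -0.29 for Kif18a to 0.16 for Kif20b. At Basal the median was -0.005 and the values ran from -0.55 for Kif23 to 0.33 for Kif14. None of the 10 differed 2-fold at either time, where 3.37% of kept genes did so after 5FU and 0.925% at Basal. The Basal difference of Kif23, 7.31 in AMKO against 7.86 in Ctrl, was the largest of the 20 values, and 7.47% of kept genes differed by as much. Averaged over both times, limma called 0 of 10 members for AMKO, with 0 at an unadjusted p under 0.05 (3.17% of kept genes) and adjusted p between 0.906 and 0.997, and 0.0% of genes were called. The 95% intervals of this fit reached from -0.83 (Kif23) to 0.67 (Kif14), so differences inside that range are not shown to be absent.

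The responses of the genotypes to 5FU were also compared, with no test possible between single arrays. The AMKO value less the Ctrl value was above 0 for 5 members and below 0 for 5, from -0.32 for Kif14 to 0.38 for Kif23, and none reached the 2-fold size that 5.5% of kept genes reached. Its median size, sign aside, was 0.175 for the members and 0.26 for kept genes. Kif20a had the smallest, at -0.01. For Kif23, AMKO minus Ctrl was -0.17 after 5FU, against -0.55 at Basal. For Kif14 it was 0.01 after 5FU, against 0.33 at Basal, and for Kif18a -0.29 after 5FU, against 0.02 at Basal.

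**Figure D3:**
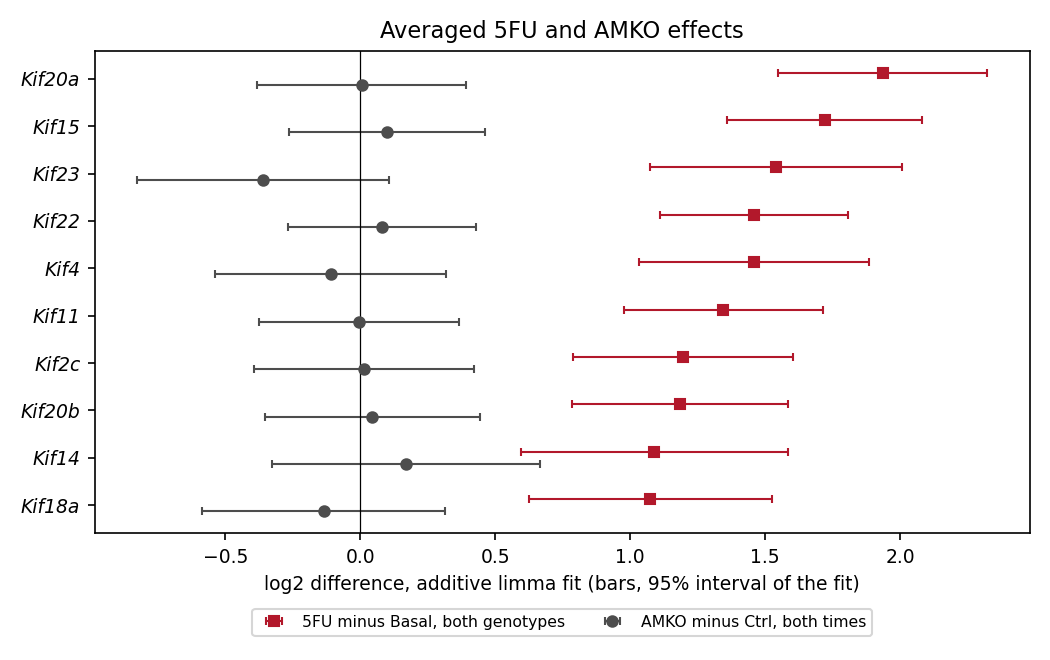
Averaged log2 effects of 5FU (squares, 5FU minus Basal over both genotypes) and of AMKO (circles, AMKO minus Ctrl over both times) from the additive limma fit, with bars for the 95% interval of the fit, which rests on 4 arrays. The 5FU effects lie between 1.075 and 1.94, and every AMKO interval spans 0.

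Kinesins outside the mitotic set were read beside the members. Of 27 other kinesins, most of them motors of transport and of cilia, 25 passed the floor, with a median 5FU difference of -0.02 in AMKO and -0.10 in Ctrl. None was 2-fold higher in either genotype, and 14 of 25 were below 0 in each. The largest average differences were Kif21a (-0.30 in AMKO and -1.69 in Ctrl), Kif24 (0.65 and 0.97), Kif6 (-0.70 in each) and Kif19a (-0.65 in each). Kif24 acts at centrioles, Kif6 and Kif19a in cilia, and Kif21a in slowing microtubule growth. Kif21a lay under the floor in both 5FU arrays, so the size of its difference is uncertain. Kif5b, the widely expressed heavy chain of conventional kinesin, differed by 0.42 in AMKO and 0.50 in Ctrl.

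Of 5 further mitotic kinesins that are not members, 4 passed the floor. Cenpe, the kinetochore motor that brings chromosomes to the plate, was higher by 1.64 in AMKO and 1.82 in Ctrl, and Kifc1, a minus-end motor that focuses spindle poles, by 1.65 and 1.81. Kif18b, which limits astral microtubules, was higher by 1.26 in AMKO and 1.37 in Ctrl. Kif2a, a depolymerase of spindle poles that is also used outside mitosis, differed by 0.36 and 0.20. Kif2b stayed below the floor in all 4 arrays. In limma the averaged differences of Cenpe, Kifc1 and Kif18b each had an adjusted p of 0.0697. That is the smallest of the whole fit and is shared with other genes, among them Kif11 and Gins1, so it does not set these 3 apart.

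**Figure D4:**
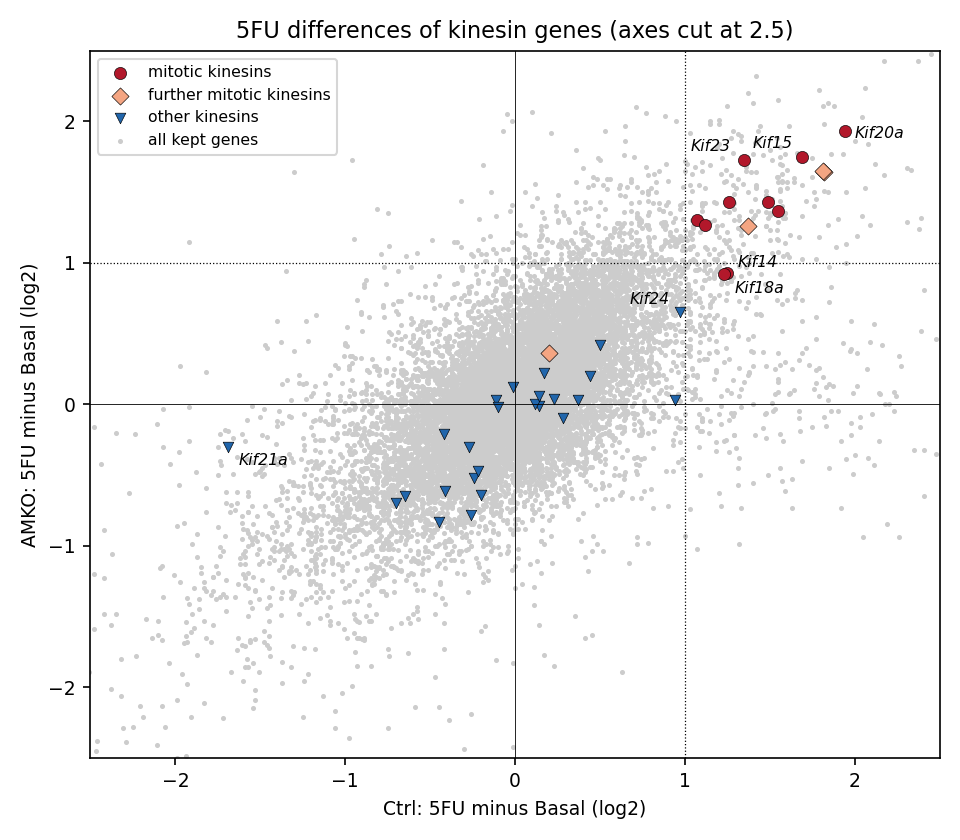
5FU minus Basal on the log2 scale in Ctrl (horizontal) and AMKO (vertical) for mitotic kinesins, further mitotic kinesins, other kinesins and all kept genes; dotted lines mark 2-fold, and 193 kept genes lie outside the axes. The 10 mitotic kinesins lie right of the Ctrl line and 8 of them above the AMKO line, with Kif14 and Kif18a just under it, while none of the 25 other kinesins passes either line.

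Partners and regulators of these motors were listed as 22 genes, of which 21 passed the floor. Their median 5FU difference was 1.32 in AMKO and 1.40 in Ctrl, and 14 were at least 2-fold higher in AMKO, 15 in Ctrl and 14 in both. Racgap1, the partner of Kif23 in centralspindlin, was higher by 1.09 in AMKO and 1.27 in Ctrl, and Ect2, a cytokinesis factor that centralspindlin recruits, by 3.10 and 2.26. Prc1, the microtubule bundler that binds Kif4, was higher by 1.32 and 1.40, and Tpx2, which recruits Kif15 and Kif11 to spindle microtubules, by 1.31 and 1.90.

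Among the kinases, Aurkb of the passenger complex was higher by 1.34 in AMKO and 1.5 in Ctrl, and Plk1, which binds Kif20a, by 1.51 and 1.82. Birc5, also of that complex, was higher by 1.88 and 1.54, and Hmmr, a spindle pole factor, by 1.70 and 2.12. Cit, the citron kinase that binds Kif14, was higher by 0.87 in AMKO and 0.91 in Ctrl, below 2-fold as Kif14 was in AMKO. Mki67, whose human protein binds KIF15, was higher by 0.79 and 1.06. Aurka was higher by 1.57 in AMKO and 1.55 in Ctrl, and Cdk1 by 1.63 and 1.57. Not every kinase on the list reached 2-fold: Nek6 differed by 0.34 in AMKO and 0.42 in Ctrl, Nek7 by 0.05 and -0.07, and Nek9 by -0.03 and -0.45. Psrc1 (0.14 and 0.54) and Numa1 (-0.12 and -0.25) also stayed below 2-fold.

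Set against lists with other roles in division, the kinesin medians of 1.40 and 1.305 were close to those of 19 kinetochore and checkpoint genes, at 1.26 in AMKO and 1.28 in Ctrl. There, 14 genes were at least 2-fold higher in each genotype, Spc24 (1.78 in AMKO and 1.66 in Ctrl), Knl1 (1.97 and 1.44), Nuf2 (1.75 and 1.56) and Bub1b (1.19 and 2.01) having the largest averages. For 20 S phase genes the medians were 0.96 in AMKO and 0.985 in Ctrl, with 7 genes at least 2-fold higher in AMKO and 10 in Ctrl. Gins1 (1.97 and 1.61) and Rrm2 (1.77 and 1.59) led them. No test of one list against another was made.

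The tracks of the motors differed less. Of 15 tubulin genes, 11 passed the floor, with medians of 0.55 in AMKO and 0.28 in Ctrl, and only Tubb2a was 2-fold higher, by 2.0 in AMKO and 1.15 in Ctrl. Its AMKO Basal value of 6.12 lay well under the Ctrl Basal value of 7.03, which enlarges the AMKO difference. Tuba1b (0.68 and 0.60), Tubb6 (0.57 and 0.83) and Tuba8 (0.59 and 0.38) followed. Tubulin genes are close copies of each other, so their probe sets can share signal.

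The factors known to act on CHR and CCAAT promoters were listed as 14 genes, all kept, with medians of 0.55 in AMKO and 0.355 in Ctrl. At least 2-fold higher were 5 in AMKO and 2 in Ctrl, against 4.69% and 5.02% of kept genes. Mybl2, which encodes B-Myb, was higher by 1.23 in AMKO and 1.33 in Ctrl, the only one of the 14 that was 2-fold higher in both. Foxm1 was higher by 0.57 and 1.14, the NF-Y subunit gene Nfyb by 1.11 and 0.86, Rbl1 by 1.24 and 0.59, and Rbbp4 by 1.19 and 0.61. The other NF-Y subunit genes differed less, Nfya by 0.19 in AMKO and 0.06 in Ctrl and Nfyc by -0.13 and -0.33. E2f4 differed by 0.07 and 0.10. The Lin genes of the list were spread: Lin9 differed by 1.40 in AMKO and 0.24 in Ctrl, Lin54 by 0.92 and 0.58, Lin52 by 0.48 and 0.28, and Lin37 by -0.38 and -0.07. Rbl2, which encodes a pocket protein of the DREAM complex in resting cells, differed by -0.30 in AMKO and -0.68 in Ctrl, with 9.46 in AMKO and 9.44 in Ctrl after 5FU, against 9.76 in AMKO and 10.12 in Ctrl at Basal. In limma 0 of these 14 passed for the averaged 5FU difference. No kept gene did so (0.0% of 14061), so that count does not set the 14 apart.

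**Figure D5:**
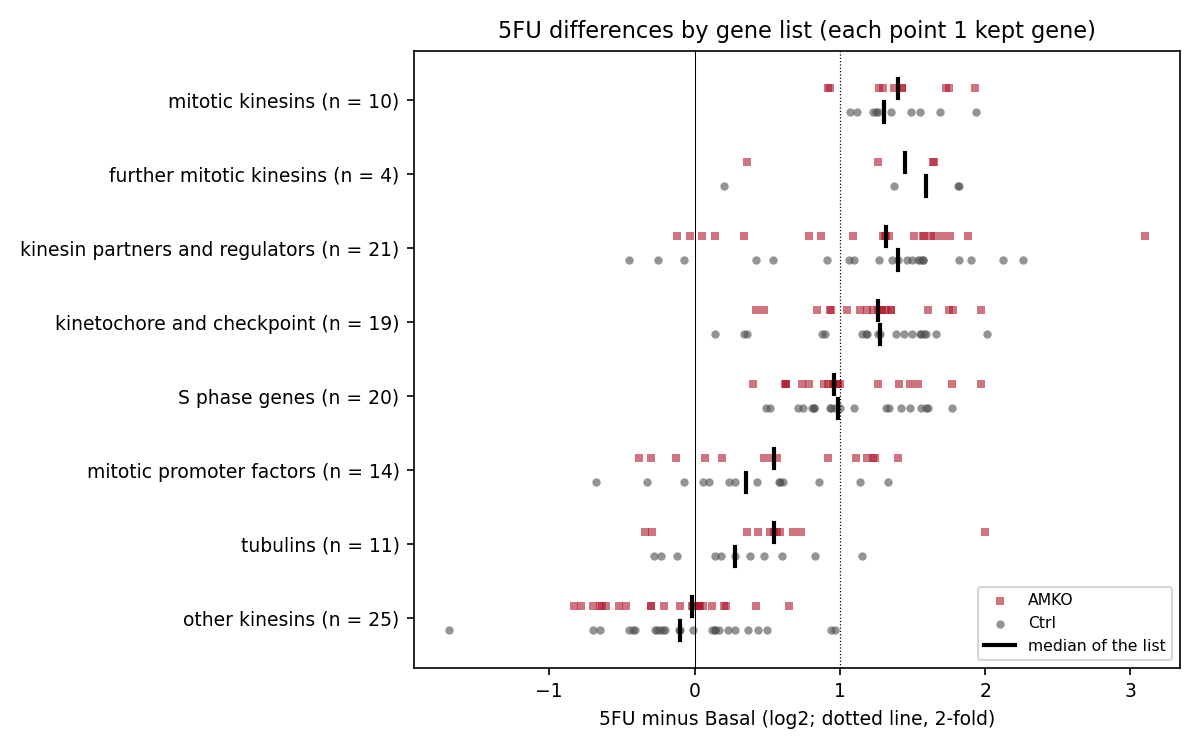
5FU minus Basal on the log2 scale for each kept gene of 8 lists, AMKO (squares) above Ctrl (circles), with a bar at each list's median and a dotted line at 2-fold. The mitotic kinesins (medians 1.40 and 1.305) lie beside their partners and the kinetochore genes, the tubulins (0.55 and 0.28) lower, and the other kinesins (-0.02 and -0.10) around 0.

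The members were also set against each other and against all kept genes by the shape of their values over the 4 arrays, taken as the root mean square difference after each gene's mean was removed. Over 4 arrays this is a description and carries no test. The closest pair was Kif20b and Kif2c, at 0.0255, and Kif20a and Kif15 were each other's nearest, at 0.119. Kif23 stood farthest from any other member, at 0.192 from Kif4. Against the mean of the members (8.71 in AMKO and 8.72 in Ctrl after 5FU, 7.30 in AMKO and 7.33 in Ctrl at Basal), the closest of 14051 other genes was Gmnn, the licensing inhibitor geminin, at 0.0324. Gins2, Tacc3, Ccna2, Me2, Aurkb, Cip2a, Uchl5, Tspan2 and Top2a followed, up to 0.0618, where the median of kept genes was 0.712. Ccna2 (cyclin A), Tacc3 (a spindle protein), Aurkb and Top2a (topoisomerase) are known cell cycle genes. Me2 is a mitochondrial malic enzyme, higher by 1.49 in AMKO and 1.29 in Ctrl, and Tspan2 is a tetraspanin, higher by 1.56 and 1.34.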

How the data were processed

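Total RNA of LSK cells was measured on 4 Affymetrix arrays, labelled with biotin per the labels' protocols. The authors' deposited table gives 1 value per probe set, read as log2 because values lay between 1.99 and 13.43. The sources used here give neither background correction nor normalization. The values were used without further scaling, and array medians were 5.43 to 5.55. The number of arrays limits the precision.

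Of 34472 probe sets, 23521 named 1 gene, 1814 several and 9137 none in the platform annotation. The Entrez identifier gave a current symbol for 23328. A gene took its probe set with the highest mean (1082 of 22180 genes had several), and 14061 genes had a highest value at or above 5.475. Differences of 1 array and 1 array have no test. Averaged effects came from limma 3.58.1 under R 4.3.3 (lmFit and eBayes, trend on, prior of 2.62 degrees of freedom), two-sided, adjusted by Benjamini-Hochberg over all kept genes. The fit was first run on simulated data, where the condition set was on its mean estimates alone. Those data had independent noise of equal size in a gene's arrays and no genotype effect, unlike the arrays here.

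The members and the 15 lists were chosen with earlier results of these data known. Named genes were the members, up to 4 genes of a list with the largest average 5FU difference, fixed partners, markers, and the 10 genes nearest the members' mean. Kif5b, Kif2a, Rbl2, Xist and the stem cell markers other than Kit were named after their values were seen. So were Aurka, Cdk1, Nek6, Nek7, Nek9, Psrc1, Numa1, Nfya, Nfyc, E2f4, Lin9, Lin37, Lin52 and Lin54. Alternatives were quantile normalization, median centring, the mean or the lowest of a gene's probe sets, other floors and fold sizes, limma with no trend or robust, and each array left out.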

Additional observations from a re-analysis of the deposited data

How the results depend on the processing

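The medians and counts of members at least 2-fold different, and each member's 5FU difference, were recomputed under quantile normalization, median centring and other choices of probe set. No difference changed sign that had been at least 2-fold. The AMKO median of the 5FU differences was 1.27 after quantile normalization and 1.51 after median centring, which moved AMKO differences of all kept genes by a median of 0.11. After quantile normalization 8 members in AMKO and 9 in Ctrl were at least 2-fold higher, and after centring 10 and 10. At a size of 3-fold, 3 members in AMKO and 2 in Ctrl were higher. Choices of probe set changed no member's value, since each had 1. Members called for 5FU by limma were 10 after quantile normalization, 4 after median centring, 9 of 9 tested with the floor at the 75th percentile, which removed Kif14, and 10 with robust estimation, against 0 without a trend, without a floor and with averaged probe sets. Leaving out 1 array, with treatment alone in the fit, called 0 to 6 members, the 6 without the AMKO 5FU array. A lone array is assumed there to vary like the pair. No alternative called a member for AMKO. No paired analysis of replicates was possible because each group had 1 array. Depth does not apply, and every member lay above the floor in all 4 arrays.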

Other observations

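Of the 5 further mitotic kinesins, promoter windows were read the same way only for the 3 that were at least 2-fold higher in both genotypes. Those of Kif2a and Kif2b were not read. Kifc1 had the CHR letters on the other strand from base 2 after the start and Kif18b had them on its own strand from base 4. Cenpe had the TTTAAA variant from base 15. CCAAT letters lay within 60 bases before the start in all 3, at 45 bases before it in Kifc1, 53 and 30 in Kif18b, and 12 in Cenpe. From 60 bases before the start to 30 after it, 14.0% of all windows held CCAAT letters, 4.62% the CHR letters and 3.61% the TTTAAA variant. Among the windows of kept genes the shares were 15.1%, 2.74% and 2.10%. These are matches of letters in 3 genes chosen with their 5FU differences known, with no test.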
